A study of Mus musculus with 2 samples.

Results

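Gata3 is the transcription factor that directs naïve CD4+ T cells to become TH2 cells, the helper cells that make IL-4, IL-5 and IL-13. Helper T cell fate is kept by enzymes that write, remove or read marks on histones and DNA, or that move nucleosomes, and several of them are known to act at the cytokine genes or at *Gata3* itself. The genes described here are 10 such chromatin regulators, chosen by name from 21938 protein-coding genes, each with its gene body and the 20 kb on either side. They are *Ezh2*, the methyltransferase of Polycomb repressive complex 2, *Men1* and *Kmt2a*, which encode menin and its partner MLL1, a methyltransferase of active promoters, *Dnmt1* and *Dnmt3a*, which maintain and newly set DNA methylation, and *Tet2*, which oxidises methylated cytosine. The others are *Suv39h1*, a methyltransferase of silent heterochromatin, *Chd4* and *Mta2*, the ATPase and a subunit of the nucleosome remodelling and deacetylase complex (NuRD), and *Smarca4*, which encodes Brg1, an ATPase of the BAF remodelling complex. *Men1* had 0 reads within 20 kb in either ChIP-seq library and was left out after the reads had been seen. The values below are for the other 9 genes.

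The data are 2 Gata3 ChIP-seq libraries, numbered replicates 1 and 2 in the labels, from TH2 cells grown *in vitro* from mouse spleen. The labels give no age, sex, strain or genotype. The study kept its mouse lines on a C57BL/6 background, its text names no genotype for the animals used for ChIP-seq, and nothing in the labels says whether the libraries came from separate cultures or mice. Its methods describe splenic naïve CD4+ T cells stimulated with anti-CD3, anti-CD28 and IL-2, with IL-4 and an antibody against IFN-γ for TH2 conditions. The extraction protocol in the labels names ILC2, while the other label fields and the study name TH2 cells, and reads of DNA do not measure marker gene expression, so the cell type could not be checked. There is 1 condition without an input or IgG library among the data used here, so a peak is a local excess of reads over its own surroundings. With such data, binding by Gata3 and open chromatin cut by the transposase cannot be told apart at a single site.

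Library 1 held 40526613 reads and library 2 held 24970952, and values are given as RPM, reads scaled to 1000000 reads of the library on chromosomes 1 to 19, X and Y. A peak was called in 200-bp windows by a one-sided exact Poisson test against the highest of the library mean and the means over 5 kb and 10 kb around the window, at a Benjamini-Hochberg q of 0.01. A peak of library 1 that overlapped a peak of library 2 was called shared, which gave 23806 peaks. Peak height was read in the highest window, the summit, in each library, and the lower of both values in RPM was used to rank shared peaks. Percentiles of height are among all shared peaks, and 95% exact intervals cover counting error only.

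Each of the 9 regulators with reads had at least 1 shared Gata3 peak within 20 kb, 24 peaks in all. Of the 21339 protein-coding genes with a read within 20 kb, 12018 (56.3%) had one. *Tet2* had 7 peaks, *Ezh2* 4, *Chd4* and *Smarca4* 3 each, *Dnmt1* and *Dnmt3a* 2 each, and *Kmt2a*, *Suv39h1* and *Mta2* 1 each. In the gene body itself 6 of the 9 genes had a shared peak, against 30.2% of all genes. The promoter was taken as the first annotated start site of the gene with 2 kb to each side. There 2 of the 9 genes had a shared peak, *Chd4* and *Smarca4*, against 12.1% of all genes. Of the 10320 genes with a CpG-rich promoter, 17% had one. *Chd4* and *Smarca4* are among the 7 regulators with such a promoter. Counts of this kind grow with the length searched, and no test was made of the 9 genes against other genes.

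The sequences under the peaks are shown for 5 of the 6 peaks that were called in both libraries at a q of 1e-10, the strictest threshold tried. Each is 200 bases centred on the summit of library 1, on the plus strand of GRCm38 (RefSeq), in the order *Tet2*, *Mta2*, *Kmt2a* and *Ezh2*. Capitals mark the sequence bound by GATA factors, which is AGATAA, also with T as its first letter or G as its last letter, on either strand, so that a copy on the minus strand reads for example TTATCT. In *Ezh2* the capitals mark also the AP-1 sequence TGAGTCA.
*Tet2* upstream peak, chr3:133555551-133555750: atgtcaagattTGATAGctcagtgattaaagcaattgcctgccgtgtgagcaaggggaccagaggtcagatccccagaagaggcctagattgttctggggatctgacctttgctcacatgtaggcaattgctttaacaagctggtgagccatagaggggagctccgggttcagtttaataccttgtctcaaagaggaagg
*Tet2* intron 1 peak, chr3:133526351-133526550: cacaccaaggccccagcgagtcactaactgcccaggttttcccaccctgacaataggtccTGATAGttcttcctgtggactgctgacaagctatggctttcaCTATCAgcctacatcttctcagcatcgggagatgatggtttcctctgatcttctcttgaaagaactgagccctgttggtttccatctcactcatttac
*Mta2* peak past the gene end, chr19:8956001-8956200: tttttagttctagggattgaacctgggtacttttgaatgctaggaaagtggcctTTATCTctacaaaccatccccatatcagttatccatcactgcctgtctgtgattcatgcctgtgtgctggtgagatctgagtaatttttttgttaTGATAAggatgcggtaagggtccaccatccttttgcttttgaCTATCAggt
*Kmt2a* upstream peak, chr9:44895651-44895850: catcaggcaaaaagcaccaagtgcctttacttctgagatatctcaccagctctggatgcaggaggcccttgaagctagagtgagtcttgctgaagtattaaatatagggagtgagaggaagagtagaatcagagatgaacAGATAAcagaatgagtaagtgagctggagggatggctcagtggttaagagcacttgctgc
*Ezh2* peak past the gene end, chr6:47527751-47527950: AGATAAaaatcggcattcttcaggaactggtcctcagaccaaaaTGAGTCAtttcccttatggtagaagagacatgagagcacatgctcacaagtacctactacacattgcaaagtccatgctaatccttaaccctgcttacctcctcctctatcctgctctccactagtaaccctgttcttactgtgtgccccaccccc

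The next 3 sequences, drawn in the same way, are the peaks at the promoters of *Chd4* and *Smarca4*, shown because they are the only promoter peaks, and the *Dnmt3a* peak with 3 GATA sequences, shown because its height differed between the libraries.
*Chd4* promoter peak, chr6:125097701-125097900: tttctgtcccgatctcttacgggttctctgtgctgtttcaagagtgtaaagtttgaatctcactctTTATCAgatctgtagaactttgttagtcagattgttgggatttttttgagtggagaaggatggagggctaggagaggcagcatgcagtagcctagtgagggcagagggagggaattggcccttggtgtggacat
*Smarca4* promoter peak, chr9:21615701-21615900: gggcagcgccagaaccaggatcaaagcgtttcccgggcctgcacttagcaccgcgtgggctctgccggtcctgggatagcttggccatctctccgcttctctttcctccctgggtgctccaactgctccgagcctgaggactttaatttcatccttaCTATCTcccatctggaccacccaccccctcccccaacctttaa
*Dnmt3a* intron 6 peak, chr12:3890301-3890500: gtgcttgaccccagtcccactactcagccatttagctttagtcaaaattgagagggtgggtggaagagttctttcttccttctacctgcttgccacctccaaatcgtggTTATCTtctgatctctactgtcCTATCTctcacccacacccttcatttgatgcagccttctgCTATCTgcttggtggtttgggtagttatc

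A GATA sequence lay within 100 bp of the summit at 18 of the 24 peaks, or 75%, against 70.9% of all shared peaks. It was present at all 6 peaks called at a q of 1e-10, against 74.1% of the 5154 shared peaks at that threshold, and at both promoter peaks, where 63.9% of the 2388 shared promoter peaks had one. Some of these copies lay far from the summit, at -99 bp (tallest *Ezh2* peak), -88 bp (upstream *Tet2* peak) and 58 bp (*Smarca4* promoter) on the plus strand. Within 50 bp of the summit 13 of the 24 peaks had a GATA sequence, against 46.4% of all shared peaks. An AP-1 sequence (TGACTCA with either C or G in the middle) was found at 1 peak, the tallest of *Ezh2*, or 4.17%, against 12.3% of all shared peaks. The ETS sequence CCGGAAG, which is common at promoters, was found on either strand at 0 of the 24, against 1.05% of all shared peaks and 3.02% of promoter peaks. The tallest of the 6 peaks without a GATA sequence stood at the 60.7 percentile, and these lay at *Ezh2* (2 peaks), *Tet2* (2) and *Smarca4* (2). Most copies of the sequence in these regions lay at no peak. Of 1591 copies within 20 kb of the 9 genes, 27 (1.70%) were within 100 bp of a shared summit, against 0.404% of 7021378 in the genome. Shared peaks numbered 2.69 per 100 kb in these regions pooled, against 0.873 in the genome, which includes sequence between genes. The median over protein-coding genes with their surroundings was 1.09 per 100 kb. By gene the density ran from 0.848 at *Kmt2a* (47.6 percentile of genes) to 5.76 at *Tet2* (96.6 percentile), with *Dnmt3a* at 1.35 (53.6 percentile). The shares of GATA copies at summits were not adjusted for peak density or for sequence between genes. A match to these letters describes the window and does not show that a factor was bound there.

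**Figure D1:**
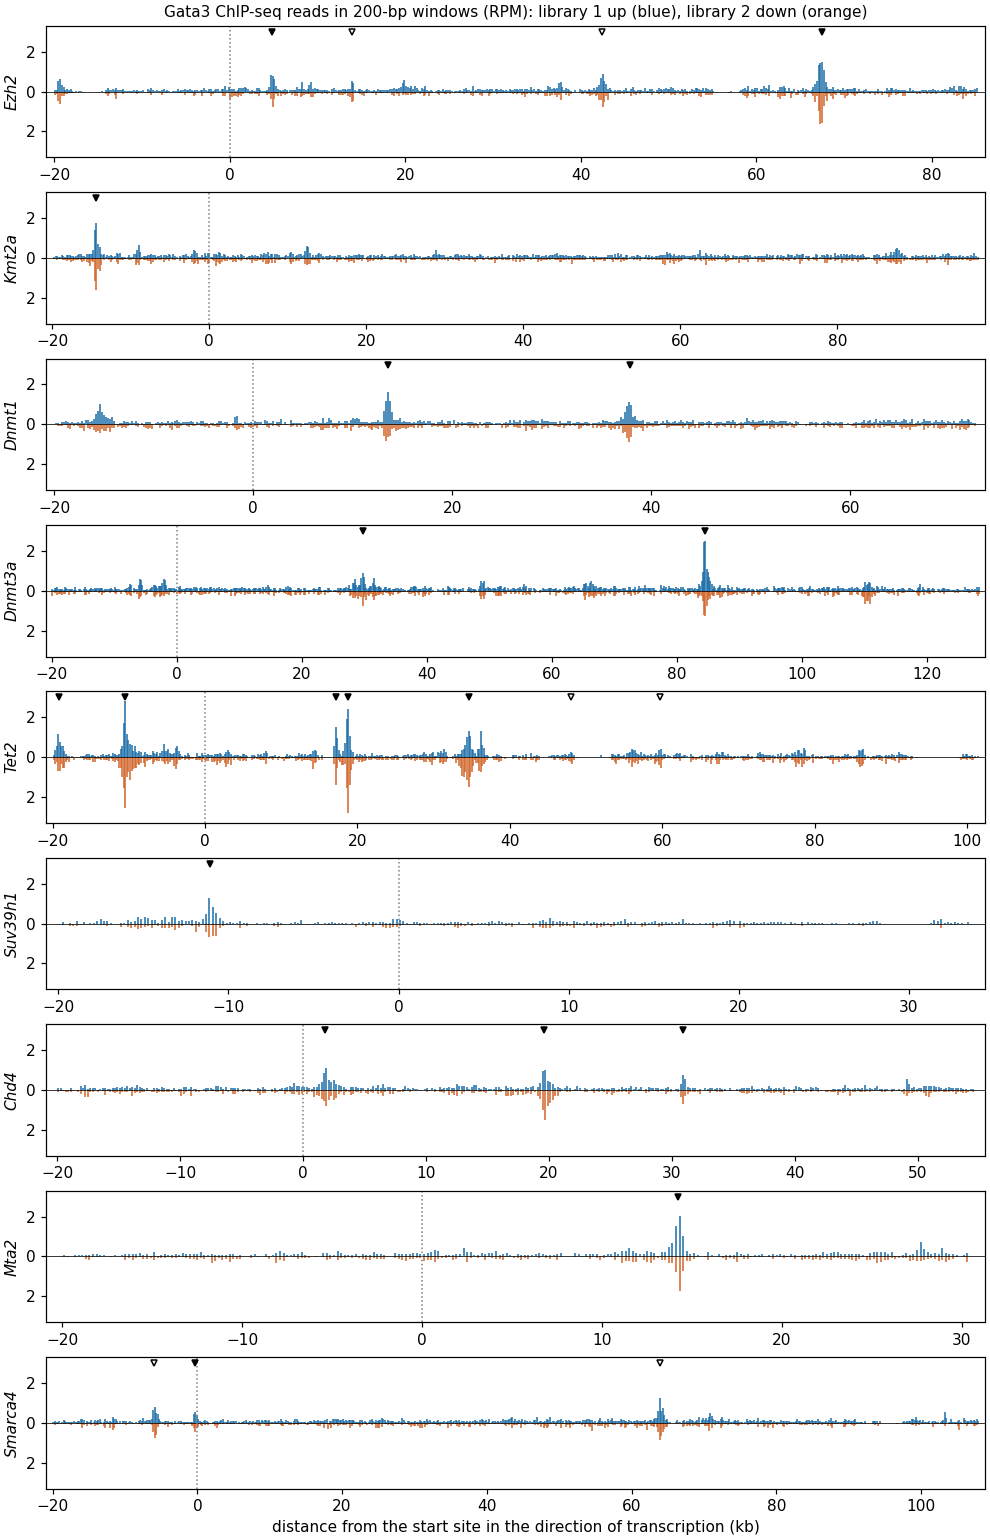
Gata3 ChIP-seq reads in 200-bp windows (RPM, y axis) over each of the 9 genes and 20 kb either side, against the distance from the start site in kb (x axis, dotted line at 0), with library 1 drawn upward in blue and library 2 downward in orange. Triangles mark shared peaks, filled where a GATA sequence lies within 100 bp. The tall peaks recur at the same positions in both libraries, and *Tet2* has 7 triangles where *Kmt2a*, *Suv39h1* and *Mta2* have 1.

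The windows of the rule, 200 bp side by side over each gene and its surroundings, were mostly near the floor of a few reads in both libraries. Over the 607 windows of *Tet2* the median was 0.0988 RPM in library 1 and 0.120 RPM in library 2, while the highest window reached 2.84 and 2.80 RPM. Windows of at least 0.5 RPM in both libraries made up 3.46% of those of *Tet2* and between 0.469% (*Smarca4*) and 1.71% (*Ezh2*) of those of the other 8 genes. The libraries followed each other along each gene, with a Pearson correlation over windows from 0.643 at *Smarca4* (640 windows) to 0.902 at *Tet2*. Neighbouring windows share fragments and local mappability, so this is a description only.

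*Tet2* encodes a dioxygenase that starts the removal of methyl groups from DNA, and by the lower RPM of both libraries it held the 2 tallest peaks of the set. In library 1 alone the *Dnmt3a* peak in intron 6 (2.89 RPM) was taller than the second of these (2.49 RPM). *Tet2* lies on the minus strand of chromosome 3 (133463679 to 133545139, GRCm38). The tallest peak lay 10511 bp upstream of the start (summit 133555650), with 127 reads (3.14 RPM) in library 1 and 71 reads (2.84 RPM) in library 2, at the 96.1 percentile. In intron 1, the summit at 133526450 had 101 reads (2.49 RPM) and 76 reads (3.04 RPM), at the 94.3 percentile. These are the 2 of the 24 peaks in the top 10% of all shared peaks, and the libraries overlapped in their counting intervals at both. Its next tallest summit lay 1500 bp away in the same intron, with 67 reads in library 1 and 36 in library 2. The other 4 peaks had between 13 and 55 reads in library 1 and between 11 and 38 in library 2, and the lowest stood at the 0.865 percentile. In number of shared peaks *Tet2* stood at the 98.7 percentile of protein-coding genes, and per length, with 5.76 peaks per 100 kb, at the 96.6 percentile. No shared peak lay within 2 kb of its start, where the highest window had 10 reads in library 1 and 11 in library 2.

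The DNA methyltransferase genes had 2 shared peaks each, all within the gene body. *Dnmt3a*, which sets new methylation, lies on the plus strand of chromosome 12 (3806007 to 3914443). Its taller peak in intron 6 (summit 3890400) had 117 reads (2.89 RPM) in library 1 and 37 reads (1.48 RPM) in library 2. It lies 84393 bp from the first start site but 1328 bp before the start of a shorter protein-coding transcript, Dnmt3a-205, so that with any protein-coding transcript start counted *Dnmt3a* would also have a promoter peak. Its other peak, in intron 2, had 41 and 20 reads. *Dnmt1*, which copies methylation at replication, lies on the minus strand of chromosome 9 (20907209 to 20959888). Its peak in intron 1 (summit 20946400) had 73 reads (1.80 RPM) and 25 reads (1.0 RPM), and its peak in exon 21 (summit 20922050) had 52 reads and 24 reads. Both *Dnmt1* peaks had their summits 150 bp apart in the libraries, and if summits had to lie within 100 bp neither would count as shared. At their first annotated starts these are the only 2 of the 9 genes without a CpG-rich promoter (48.4% of all genes have a CpG-rich one). Other protein-coding transcripts start within both genes, among them Dnmt1-207 at 20952605. CpG content at those starts was not measured, and which start is used in these cells was not tested.

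The genes of the opposing Polycomb and MLL1 methyltransferases had their tallest peaks outside the gene body. *Ezh2*, on the minus strand of chromosome 6 (47530139 to 47595341), had its tallest summit 2289 bp past the gene end (47527850), with 63 reads (1.56 RPM) in library 1 and 42 reads (1.68 RPM) in library 2. Its 3 other peaks lay in introns 6, 1 and 1, with between 31 and 42 reads in library 1 and between 17 and 20 in library 2, and 2 of these had no GATA sequence. *Kmt2a*, on the minus strand of chromosome 9 (44803355 to 44881296), had 1 shared peak 14454 bp upstream of its start (summit 44895750). That summit had 74 reads (1.83 RPM) and 46 reads (1.84 RPM), at the 88.0 percentile, and the heights differed by less than the counting error. The *Kmt2a* promoter had a read density above most genes, at the 81.0 percentile in library 1 and the 86.8 percentile in library 2, but a peak was called there in library 1 alone.

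For *Chd4* and *Mta2*, whose products sit together in NuRD and have been found with Gata3 in TH2 cells, the peaks lay within and past the gene, respectively. *Chd4* is on the plus strand of chromosome 6 (125095981 to 125130591). The summit in intron 25 had 48 reads (1.19 RPM) in library 1 and 46 reads (1.84 RPM) in library 2, and lay 1981 bp after the start of a shorter transcript, Chd4-204. The promoter peak had its summit 1819 bp after the start, in intron 2, with 50 reads (1.23 RPM) and 21 reads (0.841 RPM). Its remaining peak, in intron 37, had 34 and 20 reads. *Mta2*, on the plus strand of chromosome 19 (8941875 to 8952303), had 1 shared peak 3797 bp past its end (summit 8956100), with 91 reads (2.25 RPM) and 43 reads (1.72 RPM), at the 86.6 percentile. That summit lies in intron 2 of the neighbouring *Tut1*, 2253 bp after the *Tut1* start, and has 3 GATA sequences.

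Taking each gene's tallest peak by the lower RPM of both libraries, those of *Suv39h1* and *Smarca4* were the lowest of the 9. In library 1 alone the highest *Chd4* summit was lower, at 1.23 RPM against 1.31 RPM for *Suv39h1* and 1.26 RPM for *Smarca4*. *Smarca4*, on the plus strand of chromosome 9 (21616169 to 21704230), had a promoter peak 369 bp before its start, with 27 reads (0.667 RPM) in library 1 and 12 reads (0.481 RPM) in library 2, at the 11.5 percentile. It was 6.43-fold over its surroundings in library 1 (one-sided exact Poisson p = 1.1e-13) and 4.76-fold in library 2 (one-sided exact Poisson p = 1.4e-05). Both values are unadjusted and come from the test that called the peak, so they are not separate evidence for it. In library 2 the value was not far below the threshold for a call (one-sided exact Poisson p = 3.9e-05). The 2 taller peaks of *Smarca4*, in intron 28 (51 and 23 reads) and 6019 bp upstream (33 and 19 reads), had no GATA sequence. *Suv39h1*, on the minus strand of the X chromosome (8061171 to 8074760), had 1 shared peak 11090 bp upstream (summit 8085850), with 53 reads (1.31 RPM) and 19 reads (0.761 RPM). It lies in exon 10 of *Was*, the Wiskott-Aldrich syndrome gene, nearer to the *Was* start (4648 bp) than to that of *Suv39h1*.

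**Figure D2:**
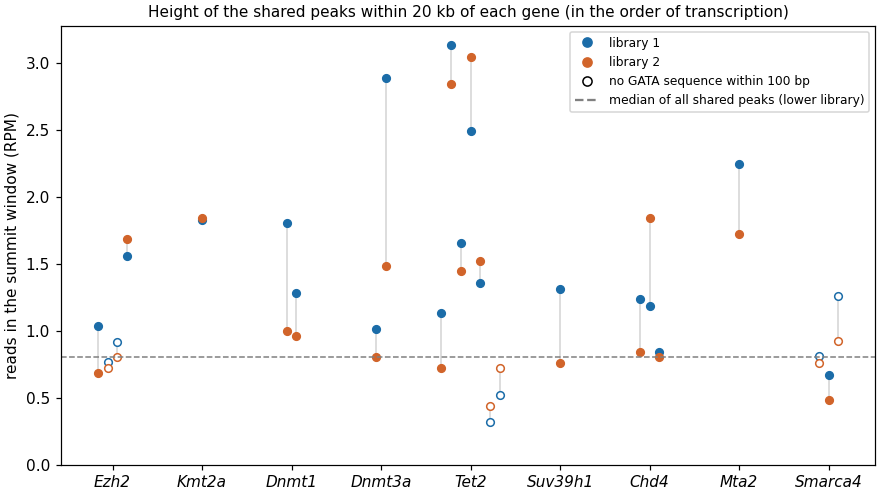
Reads in the summit window (RPM, y axis) of each shared peak within 20 kb of the 9 genes (x axis, peaks in the order of transcription), in library 1 (blue) and library 2 (orange), with a line joining the libraries and open points where no GATA sequence lies within 100 bp. The dashed line is the median height of all shared peaks (0.801 RPM), and the 2 tall *Tet2* peaks reach 2.49 RPM or more in both libraries.

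In height the 24 peaks were close to the general run of shared peaks. Their median was 0.881 RPM, against 0.801 RPM for all shared peaks, and 13 of the 24 were above the latter. By position 15 lay in an intron of the gene, 1 in an exon, 6 upstream and 2 past the gene end. With only the first start site of each protein-coding gene counted, the nearest was that of the regulator for 17 of the 24 and that of another gene for 7. Among the 7 are the peaks near the starts of shorter *Dnmt3a* and *Chd4* transcripts, which lie nearer to those starts within the regulator itself. Of the 22 peaks over 2 kb from the first start site of any gene, which include those near the starts of shorter *Dnmt3a* and *Chd4* transcripts, 16 had a GATA sequence, against 71.6% of all shared peaks at that distance. No summit window was over 50% repeat-masked sequence, as 3.17% of shared summits were.

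At the promoters the reads behind the calls were few. The highest window lying wholly within 2 kb of the *Chd4* start had 50 reads (1.23 RPM, interval 0.916 to 1.63) in library 1 and 19 reads (0.761 RPM, interval 0.458 to 1.19) in library 2, where the summit window of the same peak, with 21 reads, runs past that limit. For *Smarca4* it was 27 reads (0.667 RPM, interval 0.439 to 0.970) and 12 reads (0.481 RPM, interval 0.248 to 0.840). The other 7 genes reached between 0.247 and 0.518 RPM in library 1 and between 0.240 and 0.481 RPM in library 2, so that *Kmt2a* had as many reads in library 2 (12) as *Smarca4*. Library 1 had promoter peaks at *Kmt2a*, *Dnmt1* and *Suv39h1* that were not called in library 2. For *Kmt2a* the highest window wholly within 2 kb in library 1, with 16 reads (one-sided exact Poisson p = 0.00019), did not itself pass the threshold of that library (p = 9.6e-05). That peak was called from another window. At this depth a promoter without a shared call is not shown to be free of Gata3.

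**Figure D3:**
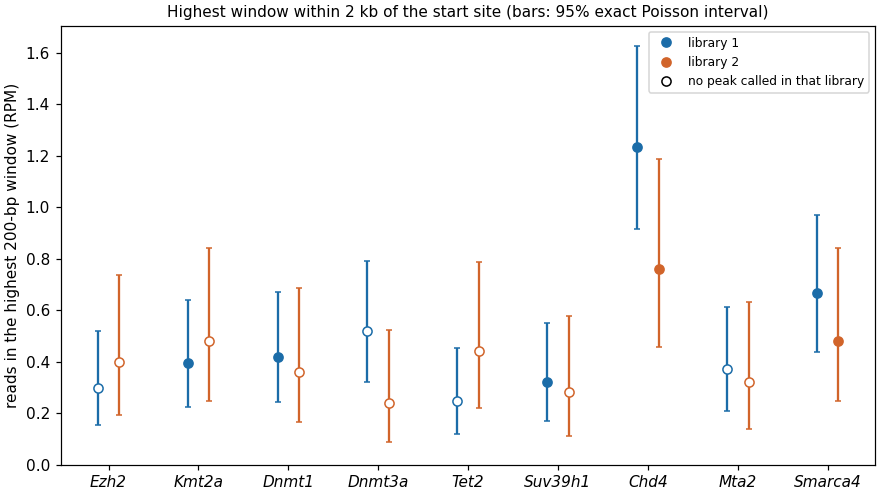
Reads in the highest 200-bp window lying wholly within 2 kb of the start site (RPM, y axis) for the 9 genes (x axis) in library 1 (blue) and library 2 (orange), with 95% exact Poisson intervals and open points where no peak was called in that library. Filled points mark a promoter peak in that library, but the windows drawn for *Kmt2a* in library 1 and *Chd4* in library 2 did not themselves pass the threshold. *Chd4* is highest in both libraries at 1.23 and 0.761 RPM. Its interval overlaps only that of *Smarca4* in library 1 and those of all other 8 genes in library 2, which also overlap each other.

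The promoter sequences were searched for the same letters. Within 250 bp of the first annotated start a GATA sequence lay at *Dnmt1* and *Chd4* (36.9% of all promoters have one). An ETS sequence lay at *Mta2* (14.7%) and an AP-1 sequence at 0 of the 9 genes (6.30%). The GATA sequence under the *Chd4* promoter peak lies outside that window, and that of *Smarca4* lies 58 bp after the summit on the plus strand.

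Read density over the whole gene and its surroundings, per length, put *Tet2* first in both libraries, with 0.744 RPM per kb (interval 0.720 to 0.768) in library 1 and 0.839 RPM per kb (interval 0.807 to 0.872) in library 2. These densities are at the 93.2 and 97.0 percentiles of protein-coding genes, and the *Tet2* interval was clear of that of the next gene in each library. *Dnmt1*, *Dnmt3a*, *Mta2*, *Ezh2*, *Chd4* and *Kmt2a* followed with 0.598 to 0.684 RPM per kb in library 1 and 0.551 to 0.625 in library 2, above the medians over genes of 0.504 and 0.493. Their order changed between the libraries and neighbours in it had overlapping intervals. *Smarca4* (0.481 and 0.456) and *Suv39h1* (0.400 and 0.412) were lowest in both, with overlapping intervals in library 2. The whole X chromosome had 44.4% and 52.2% of the density of the autosomes in libraries 1 and 2, and among the 884 genes on X with reads *Suv39h1* stood at the 84.7 and 77.6 percentiles. A shared peak lay within 20 kb of 39.4% of the genes on X.

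Peaks that were shared in position could still differ in height between the libraries. By a two-sided exact binomial test of all reads of a peak against the ratio of library sizes, with Benjamini-Hochberg adjustment over all shared peaks, 4 of the 24 differed between the libraries, against 15.2% of all shared peaks. These were the 2 *Dnmt1* peaks, the *Dnmt3a* peak in intron 6 and the *Mta2* peak, and each was higher in library 1, as were 73.8% of all shared peaks that differed. The *Dnmt3a* peak had 286 reads in library 1 and 93 in library 2, 1.89-fold higher in RPM (interval 1.49 to 2.42, exact binomial adjusted p = 4.3e-06). The *Dnmt1* intron 1 peak had 209 and 70 reads, 1.84-fold higher (interval 1.40 to 2.45, exact binomial adjusted p = 0.00026). The *Dnmt1* exon 21 peak was 1.54-fold higher (exact binomial adjusted p = 0.040), and the *Mta2* peak, with 220 and 89 reads, 1.52-fold higher (exact binomial adjusted p = 0.0095). Over all shared peaks the median ratio of library 1 to library 2 was 1.13. When that median was taken as the expected ratio, the *Dnmt3a* peak and the *Dnmt1* intron 1 peak still differed, the *Mta2* and *Dnmt1* exon 21 peaks did not pass, and the *Chd4* peak in intron 25 did (0.728, interval 0.552 to 0.962, exact binomial adjusted p = 0.023), lower in library 1. Judged by the read names, each library was sequenced on another instrument, while the study's methods describe pooled libraries and name a single sequencer model. A difference between the samples themselves and one between sequencing runs therefore cannot be told apart. At neither tall *Tet2* peak did the libraries differ by this test, with ratios of 1.11 (interval 0.901 to 1.36) and 0.978 (interval 0.797 to 1.20).

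**Figure D4:**
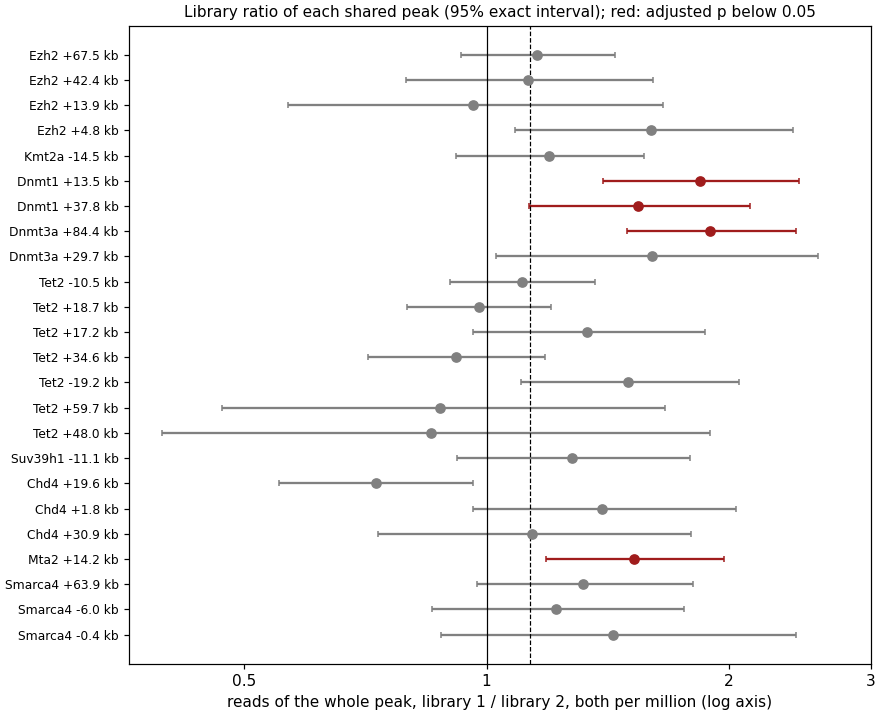
Ratio of library 1 to library 2 in RPM over each whole shared peak (x axis, log scale), with 95% exact intervals, for the 24 peaks named by gene and distance from the start (y axis). Red marks an adjusted p below 0.05, the solid line a ratio of 1 and the dashed line the median of all shared peaks (1.13). The 4 red peaks, at *Dnmt1*, *Dnmt3a* and *Mta2*, lie between 1.52 and 1.89.

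Other genes of the same complexes were counted in the same way, 50 in all, from a list written by membership of the complexes. A shared peak lay within 20 kb of 42 of them (84%), and at the promoter of 6 (12%), beside 56.3% and 12.1% of all genes. By complex, all 6 further genes of Polycomb repressive complex 2 had a peak within 20 kb, as did 7 of 9 genes of the menin and MLL complexes, all 5 of DNA methylation, 6 of 8 of heterochromatin methylation, 6 of 9 of NuRD and 12 of 13 of BAF. The 6 with a promoter peak were *Arid1a* and *Smarcd2* (BAF subunits), *Kdm6b* (a demethylase that opposes Polycomb), *Rbbp4* (a histone chaperone shared by NuRD and Polycomb repressive complex 2), *Cbx5* (a heterochromatin protein) and *Dnmt3b* (the other new-methylation enzyme). *Arid1a* and *Smarce1* had the most shared peaks, 5 each, and 6 other genes had 4. Per length *Smarce1* (8.07 peaks per 100 kb) and *Kdm6b* (7.25) were above *Tet2* (5.76). The *Smarce1* read density of 0.878 and 0.892 RPM per kb in libraries 1 and 2 was also above that of *Tet2*. The tallest peaks of 4 of the 50 genes, *Chd3*, *Pbrm1*, *Arid1a* and *Smarcc2*, were taller than that of *Tet2*, with heights of 3.85, 3.77, 3.18 and 3.0 RPM against 2.84 RPM (*Chd3*, *Pbrm1* and *Smarcc2* were named after their values were seen). The median was 2 shared peaks per gene in these 50 genes as in the 9, and 1 over all genes.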

How the data were processed

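Per the labels and the study's methods, single-end reads were mapped by the authors with Bowtie2 (version 2.3.5.1) on GRCm38, and those that mapped to several places were dropped. They deposited 1 line per read with its position, strand and mapping quality score, which ranged from 22 to 44. The labels also name MACS2 (version 2.1.2), but no peak list was used here. All deposited reads on chromosomes 1 to 19, X and Y entered (40504814 and 24959052), and 0 reads lay beyond a chromosome end of the reference. In each library 0 reads shared their 5′ position and strand with another, so duplicates were removed upstream, which caps the height of a peak. Reads were shifted by 100 bp, counted in 200-bp windows every 50 bp and tested as stated above, and called windows within 100 bp were joined. The numbers of peaks were 71726 in library 1 and 28204 in library 2. Peaks were assigned to genes by the library 1 summit. Genes came from GENCODE M21, sequence and repeat masking from RefSeq GRCm38.p6. A promoter was CpG-rich with an observed to expected CpG ratio of at least 0.6 and a GC content of at least 50% within 250 bp of the start. Exons and introns are numbered in the transcript with the most exons. *Men1* is among 599 protein-coding genes without a read within 20 kb. These were treated as without data and left out of every share after the reads had been seen. The genes and lists were chosen with earlier results of these data known. The genes named were the 9 described, the promoter peaks among the 50 other regulators and those with the most peaks, and each gene's 3 tallest peaks, with exceptions stated. Sequences were printed for chosen peaks only, and that of 1 of the 6 called at a q of 1e-10 is not reported here. Alternatives were stricter thresholds, 400-bp windows, another background, a mapping quality of at least 30, thinning of library 1, each library alone, and other distances and motifs. Computations used Python 3.11.15, NumPy 2.4.6, SciPy 1.17.1 and Matplotlib 3.10.9.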

Additional observations from a re-analysis of the deposited data

How the results depend on the processing

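At a q of 1e-10, 5 of the 9 genes and 6 peaks remained within 20 kb, all 6 with a GATA sequence (74.1% of all shared peaks at that threshold), and 0 promoters, beside 4307 genes within 20 kb, 607 promoters of all genes and 0 of the other regulators. At 5-fold or more over the background, 5 genes and 7 peaks were left, 6 of them with a GATA sequence (73.3% of all), and 0 promoters, beside 5371 genes within 20 kb, 587 promoters and 0 of the other regulators. Under both the genes were *Ezh2*, *Kmt2a*, *Tet2*, *Chd4* and *Mta2*, and 5 peaks were kept by both. Without either library in turn, the peaks of the 9 genes numbered 30 to 56, their promoters 2 to 5, promoters of all genes 2876 to 6151, genes within 20 kb 12914 to 17820 and promoters of the other regulators 6 to 16. The higher values are those of library 1, which thinned to the depth of library 2 still had 46960 peaks over the genome, against 28204 in library 2. A promoter of 1 kb either side left 1 of the 9 genes, *Smarca4*, and 1622 genes, and one from 5 kb upstream to 1 kb downstream left the same one, beside 2860 genes and 7 of the other regulators. Any transcript start gave promoter peaks at 13 of the 50 other regulators (26%), 3 of the 9 genes and 3179 of all genes (14.9%). Gene bodies alone held a peak in 6441 genes. AGATAA alone was found at 8 of the 24 peaks and at 40.7% of all shared peaks. With the local background taken without the central 1 kb, *Tet2* had 11 shared peaks. The causes of other moves were not tested. Thinning of library 1, a mapping quality of at least 30, 400-bp windows and summits within 100 bp left the counts of genes and peaks within 20 kb and of promoters within 1.5 times the value reported (the GATA and between-library counts were not run under them), and *Dnmt1* alone lost all its peaks, with summits within 100 bp. Depth limits precision, since the promoter peaks rested on 21 reads (*Chd4*) and 12 reads (*Smarca4*) in library 2. No paired analysis was possible because the libraries share a single condition.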
